A study of Drosophila melanogaster with 18 samples.

Results

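The 3 yolk protein genes Yp1, Yp2 and Yp3 and yolkless (yl), the gene of the receptor that takes yolk proteins into the oocyte, were followed through all 18 ovary libraries of a study of SAGA subunits. They were chosen by name, for what their products do, and are 4 of the 15682 genes in the expression table. All 4 were abundant in every library and passed the filter on low values in every comparison. The question was how each of them stood in ovaries mutant for ada2b, Ataxin-7 or non-stop, each set against the FRT control of its own experiment.

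Yolk proteins are the main protein store of the fly egg. In Drosophila they are made by the fat body, which releases them into the hemolymph, and by the follicle cells that surround the oocyte during yolk deposition. The germline makes Yolkless, a receptor of the low-density lipoprotein (LDL) receptor family that binds yolk proteins at the oocyte surface and carries them inward through clathrin-coated pits.

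Poly(A) RNA from whole ovaries was sequenced in 3 experiments of 6 libraries each. One group per experiment was labelled mutant for a single subunit, which was ada2b in the acetyltransferase part of SAGA and either non-stop or Ataxin-7 in its deubiquitinase part, and the other was a control labelled FRT with wild-type genotype, with 3 biological replicates in each group. The treatment was the one for making germline clones, mutant germ cells produced by recombination in a heterozygous fly, and all groups shared it: raised at 25 °C, larvae were given 37 °C for 2 h on 2 days and females had yeast for 2 to 3 days before their ovaries were taken. The labels do not give the alleles or the share of germ cells that were mutant, and the follicle cells, in which an ovary transcribes its yolk protein genes, were not their stated target.

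Expression was given as RPKM, reads per kilobase of gene length scaled to the reads of the library, and the libraries held between 22608290 and 42018396 reads on genes. The 4 genes had 12170 to 567436 reads each in a library, so counting error was small beside the spread between replicates. The targeted gene was low in the mutant libraries of 2 experiments: Ada2b at 6.17 to 8.75 RPKM in ada2b ovaries against 44.4 to 46.5 RPKM in FRT ovaries, and not (non-stop) at 1.52 to 1.82 RPKM in non-stop ovaries against 17.9 to 24.0 RPKM in FRT ovaries. Atxn7 went against its label, at 12.4 to 12.5 RPKM in the libraries with that label against 7.59 to 7.92 RPKM in FRT ovaries, and those libraries are therefore called the libraries labelled Ataxin-7. The ada2b replicates were the least alike, and replicate 1 stood apart from the other 2 at a Pearson correlation of 0.987 and 0.988. All 7 germline markers and all 7 follicle cell markers in the table were above 0 in every library.

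All 4 genes lie on the X chromosome (positions in BDGP6.54). Yp1 (FBgn0004045) runs from 10053811 to 10055498 on the plus strand and Yp2 (FBgn0005391) from 10050951 to 10052636 on the minus strand, so that they point away from each other across a gap of 1174 bp, and each has 2 exons. Yp3 (FBgn0004047), with 3 exons, stands alone at 13759546 to 13761547 on the plus strand, 3704047 bp from Yp1. yl (FBgn0004649), with 4 or 5 exons, runs from 14193214 to 14199958 on the plus strand. Yp1 overlaps asRNA:CR45601 on the opposite strand and yl overlaps mir-4917 on its own strand, and whether strand was used in counting is not given in the sources used here. The 3 yolk protein genes are related in sequence, and how reads that matched more than 1 of them were counted is likewise not given.

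Yp1 and Yp2 were among the most abundant transcripts of the ovary. The yolk protein genes ranked between 3 and 251 among all genes in a library by RPKM, and yl between 144 and 338. Averaged over the 18 libraries, Yp2 was at 3462 RPKM, Yp1 at 3007 RPKM, Yp3 at 843 RPKM and yl at 302 RPKM. The length behind the RPKM of Yp3 was 1623 bp, shorter than its exons in BDGP6.54 (1868 bp). Per kilobase of those exons Yp3 averaged 732 RPKM, which leaves the order of the 4 averages the same. Levels were normalized within each experiment and are not compared between experiments by a test. The FRT ovaries alone ran from 2815 ± 389 RPKM of Yp1 in the ada2b experiment and 2898 ± 361 RPKM in the Ataxin-7 experiment to 1295 ± 342 RPKM in the non-stop experiment (SD, n = 3 each).

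**Figure D1:**
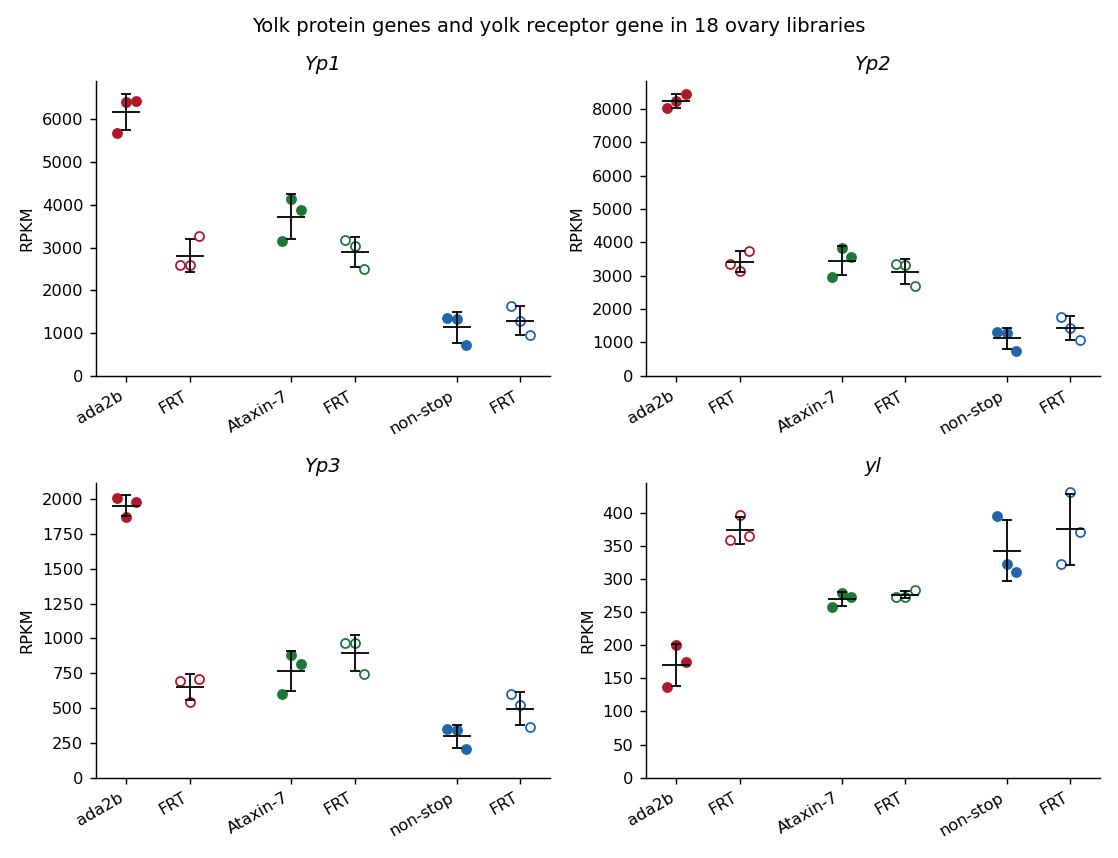
RPKM of Yp1, Yp2, Yp3 and yl (vertical axes, each from 0) in the 18 ovary libraries. Filled circles are mutant libraries, open circles the FRT libraries of the same experiment, and lines the mean with 1 SD of 3 libraries. The ada2b libraries lie above their FRT libraries for the 3 yolk protein genes and below them for yl, and in the other 2 experiments the groups overlap except for Yp3 in the non-stop experiment.

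In ada2b ovaries the 3 yolk protein genes rose and the receptor gene fell. Yp1 had 5677, 6406 and 6436 RPKM in ada2b ovaries against 2600.0, 2582 and 3264 RPKM in FRT ovaries. Yp2 had 8022, 8238 and 8445 RPKM in ada2b ovaries against 3365, 3134 and 3748 RPKM in FRT ovaries. Yp3, the least abundant of them, had 2009.6, 1869.7 and 1980.3 RPKM in ada2b ovaries against 697, 547 and 708 RPKM in FRT ovaries. In each case every ada2b library was above every FRT library, by more than the whole spread within either group. yl had 137, 201 and 174 RPKM in ada2b ovaries against 359, 397 and 365 RPKM in FRT ovaries, with every ada2b library below every FRT library.

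The change was 2.20-fold for Yp1 (log2 fold change 1.14, SE 0.14), 2.42-fold for Yp2 (1.27, SE 0.12) and 3.02-fold for Yp3 (1.59, SE 0.12) on the scale of RPKM + 1. The adjusted p-values, from limma over all 7674 tested genes, were 0.000529 for Yp1, 0.000203 for Yp2 and 9.13e-05 for Yp3. yl fell by 1.14 on the log2 scale (SE 0.14, adjusted p = 0.000555), which leaves 0.452 times the level in FRT ovaries. An exact permutation test of each gene alone gave p = 0.1, the smallest that 3 libraries against 3 allow. So 4 of 4 genes passed the limma test, against a background of 67.9% of all tested genes called (25.6% higher and 42.3% lower), and 4 of 4 did not overlap, against 76.2% of all tested genes. Over all genes tested in this experiment the median change was -0.13. With all libraries scaled to a common median it was 0.11, and 58.8% of called genes were higher, against 37.7% otherwise. Under that scaling the changes were 1.41 for Yp1, 1.54 for Yp2, 1.86 for Yp3 and -0.87 for yl, all called. Without ada2b replicate 1 they were 1.20, 1.29, 1.57 and -0.99, in the same order and all called.

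Yolk protein transcripts took 2.31%, 2.91% and 2.89% of the reads on genes in ada2b ovaries against 1.10%, 0.992% and 1.26% in FRT ovaries. The mean share was 2.70% ± 0.338 in ada2b ovaries and 1.12% ± 0.135 in FRT ovaries (SD, n = 3 each). The widest 95% Wilson interval of a share spanned 0.0124 percentage points, which covers counting error only. In bulk RNA, fewer cells of a type and less RNA per cell cannot be told apart, and this holds for every level given here.

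**Figure D2:**
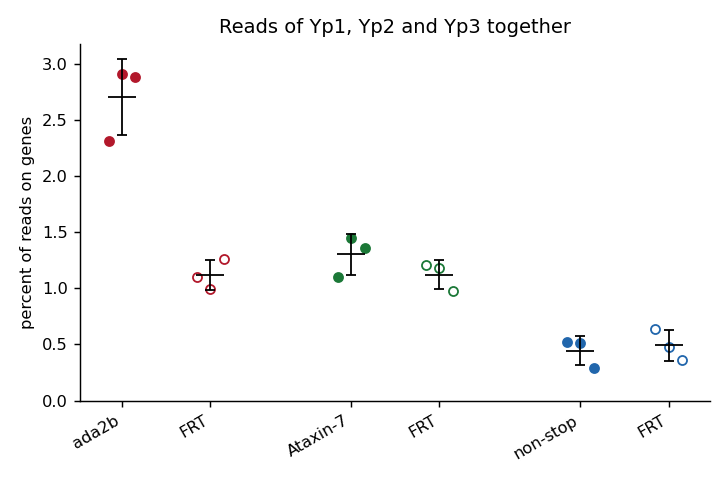
Reads of Yp1, Yp2 and Yp3 together as a percentage of all reads on genes in each library (vertical axis, from 0). Filled circles are mutant libraries, open circles their FRT libraries, and lines the mean with 1 SD of 3 libraries. The share was 2.70% in ada2b ovaries against 1.12% in their FRT ovaries, while in the other 2 experiments the groups overlap.

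In the libraries labelled Ataxin-7 none of the 4 genes passed the test. Yp1 had 3147, 4146 and 3887 RPKM in the libraries labelled Ataxin-7 against 3176, 3027 and 2489 RPKM in FRT ovaries. Yp2 had 2963, 3831 and 3570.1 RPKM there against 3355, 3324 and 2688 RPKM in FRT ovaries. Yp3 had 602, 879.5 and 818 RPKM there against 969, 968 and 743 RPKM in FRT ovaries. In all 3 genes the groups overlapped: replicate 1 was the lowest of the libraries labelled Ataxin-7 and replicate 3 the lowest of the FRT libraries. yl had 258, 279 and 273 RPKM in the libraries labelled Ataxin-7 against 274, 273 and 284 RPKM in FRT ovaries, and these groups overlapped too.

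The log2 fold change was 0.36 for Yp1 (95% confidence interval 0.058 to 0.66, adjusted p = 0.0561), 0.14 for Yp2 (-0.14 to 0.43, adjusted p = 0.368), -0.23 for Yp3 (-0.61 to 0.15, adjusted p = 0.284) and -0.04 for yl (-0.14 to 0.06, adjusted p = 0.498) in limma. Thus 0 of 4 genes were called, while 44.3% of the 7428 tested genes were (20% higher and 24.3% lower), and 0 of 4 did not overlap, against 57.2% of all tested genes. At an unadjusted p under 0.05, the count was 1 of 4 (Yp1). Yp1 was near the threshold and passed it under some settings: its adjusted p was 0.0186 with a change of 0.48 when replicate 1 of the libraries labelled Ataxin-7 was left out, 0.0426 with a filter at a mean of 5 RPKM and 0.0232 in limma voom on the reads recovered from the RPKM values. Over all settings and libraries left out, its adjusted p ran from 0.0186 to 0.269. The yolk share of reads was 1.30% ± 0.181 in the libraries labelled Ataxin-7 and 1.12% ± 0.126 in FRT ovaries (SD, n = 3 each).

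In non-stop ovaries Yp3 fell, and the other 3 genes did not pass the test. Yp3 had 346, 339.9 and 203 RPKM in non-stop ovaries against 602, 519.9 and 366 RPKM in FRT ovaries. Every non-stop library was below every FRT library, though the highest non-stop library and the lowest FRT library were close. Yp1 had 1361, 1324 and 719 RPKM in non-stop ovaries against 1639, 1292 and 955 RPKM in FRT ovaries. Yp2 had 1329, 1278 and 754 RPKM in non-stop ovaries against 1776, 1438 and 1064 RPKM in FRT ovaries. yl had 396, 323 and 311 RPKM in non-stop ovaries against 323, 431 and 372 RPKM in FRT ovaries. For these 3 genes the groups overlapped, and the spread was wide: replicate 3 was the lowest of its group for each yolk protein gene in both groups.

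Yp3 fell by 0.75 on the log2 scale (SE 0.25, adjusted p = 0.0366 in limma), to 0.594 times the level in FRT ovaries. The log2 fold change was -0.21 for Yp1 (95% confidence interval -0.87 to 0.45, adjusted p = 0.556), -0.36 for Yp2 (-0.96 to 0.24, adjusted p = 0.278) and -0.13 for yl (-0.44 to 0.18, adjusted p = 0.458). Thus 1 of 4 genes was called, against a background of 50.8% of the 7492 tested genes (25.7% higher and 25% lower), and 1 of 4 did not overlap, against 59.9%. The call of Yp3 depended on the libraries and the processing: the change was -0.60 without FRT replicate 1 (adjusted p = 0.103), -0.70 without FRT replicate 2 (adjusted p = 0.0992) and -0.50 without non-stop replicate 3 (adjusted p = 0.0848). It was -0.48 after quantile normalization (adjusted p = 0.143), and its adjusted p was 0.104 when no low genes were filtered out. Over all settings and libraries left out, its adjusted p ran from 0.00218 to 0.143, with the direction kept throughout. After quantile normalization Yp1 and Yp2 were higher in non-stop than in FRT ovaries (0.45 and 0.30), neither called, and without non-stop replicate 3 Yp1 was at 0.09. The yolk share of reads was 0.445% ± 0.131 in non-stop ovaries and 0.492% ± 0.138 in FRT ovaries (SD, n = 3 each).

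The change of each gene was set against its change in the other experiments with an interaction term in limma, over 12 libraries. Against the non-stop change, the ada2b change was higher by 1.35 for Yp1 (adjusted p = 0.00514), 1.63 for Yp2 (adjusted p = 0.000786) and 2.35 for Yp3 (adjusted p = 5.99e-05), and it was lower for yl, at -1.02 (adjusted p = 0.0012). All 4 were called, against a background of 70.6% of the tested genes. Against the change in the libraries labelled Ataxin-7, the ada2b change was higher by 0.78 for Yp1 (adjusted p = 0.00489), 1.13 for Yp2 (adjusted p = 0.000188) and 1.82 for Yp3 (adjusted p = 3.35e-05), and it was at -1.11 for yl (adjusted p = 0.000103), again 4 of 4 against a background of 68.5%. After quantile normalization the Yp1 differences were 0.51 (adjusted p = 0.277) against non-stop and 0.79 (adjusted p = 0.0936) against the libraries labelled Ataxin-7, and the Yp2 difference against non-stop was 0.66 (adjusted p = 0.138), so that these 3 were no longer called. Those of Yp3 and yl were called under every setting tried.

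Between the libraries labelled Ataxin-7 and non-stop ovaries no gene differed in its change by this test. The difference was 0.57 for Yp1 (95% confidence interval -0.20 to 1.35, adjusted p = 0.223), 0.51 for Yp2 (-0.20 to 1.21, adjusted p = 0.242), 0.52 for Yp3 (-0.21 to 1.26, adjusted p = 0.243) and 0.09 for yl (-0.24 to 0.42, adjusted p = 0.674), while 37.5% of tested genes were called. At an unadjusted p under 0.05 the count was also 0 of 4. The intervals of the yolk protein genes reach past a doubling, so these libraries do not show that both changes are alike.

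**Figure D3:**
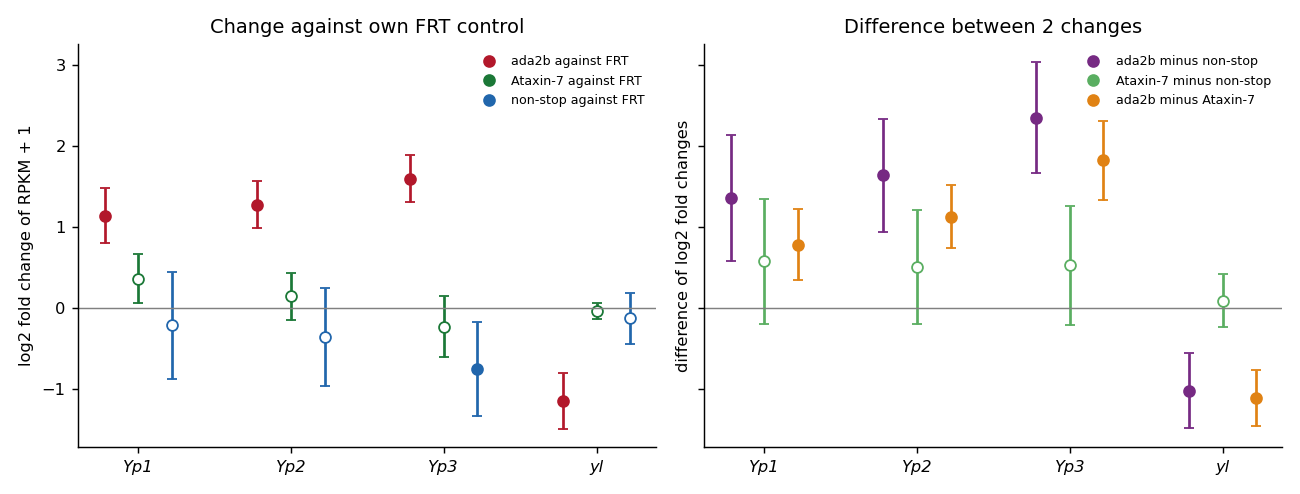
Log2 fold changes of RPKM + 1 against the own FRT control (left, vertical axis) and differences between 2 such changes (right) for Yp1, Yp2, Yp3 and yl. Points are limma estimates with 95% confidence intervals, filled where the adjusted p was under 0.05. The ada2b points stand at 1.14, 1.27 and 1.59 for the yolk protein genes and at -1.14 for yl, and of the other 8 changes that of Yp3 in non-stop ovaries, -0.75, is filled.

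The 3 yolk protein genes kept close to each other from library to library, but their proportions shifted. A ratio of 2 genes within a library does not depend on how libraries were scaled, and its change does not depend on gene length. The log2 ratio of Yp3 over Yp1 was -1.50, -1.78 and -1.70 in ada2b ovaries against -1.90, -2.24 and -2.20 in FRT ovaries, so Yp3 gained on Yp1. It was -2.39, -2.24 and -2.25 in the libraries labelled Ataxin-7 against -1.71, -1.65 and -1.74 in FRT ovaries. In non-stop ovaries it was -1.97, -1.96 and -1.83 against -1.45, -1.31 and -1.38 in FRT ovaries. No mutant library overlapped the FRT libraries of its experiment. The ratio was higher in ada2b ovaries but lower in non-stop ovaries and in the libraries labelled Ataxin-7. How often ratios of other gene pairs do not overlap was not counted, so this is not shown to be particular to the yolk protein genes. Of single tested genes, 76.2% did not overlap in the ada2b experiment, 57.2% in the Ataxin-7 experiment and 59.9% in the non-stop experiment.

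The change of the log2 ratio of Yp3 over Yp1 was 0.46 in ada2b ovaries, -0.59 in the libraries labelled Ataxin-7 and -0.54 in non-stop ovaries. As linear ratios, Yp3 stood at 0.318 ± 0.0323 of Yp1 in ada2b ovaries and 0.232 ± 0.0311 in FRT ovaries, at 0.205 ± 0.0116 in the libraries labelled Ataxin-7 and 0.308 ± 0.0109 in FRT ovaries, and at 0.264 ± 0.0151 in non-stop ovaries and 0.384 ± 0.0176 in FRT ovaries (SD, n = 3 each). Yp3 over Yp2 moved the same way in each experiment, by 0.32 in ada2b ovaries, -0.37 in the libraries labelled Ataxin-7 and -0.39 in non-stop ovaries, with no overlap. Yp2 over Yp1, the divergent pair, moved least: by 0.13 in ada2b ovaries, where the groups overlapped, by -0.22 in the libraries labelled Ataxin-7 and by -0.15 in non-stop ovaries. In a two-sided exact permutation test the 8 ratio changes without overlap each had p = 0.1, the smallest possible, and the other p = 0.2. Adjusted over the 9 changes these were 0.113 and 0.2, so that none can pass 0.05 in this design.

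The ratio changes of 2 experiments were then compared by permuting the group labels within each experiment, an exact test with 400 arrangements. It was chosen after the ratios had been seen, and it tests for no mutant effect in either experiment. A small p from it therefore does not show that 2 changes differ. Neither Yp3 ratio overlapped between groups, and ada2b moved opposite to the other experiments. This fixed the p of the ada2b comparisons of these ratios at 0.005 before the test. The change of Yp3 over Yp1 in ada2b ovaries exceeded that in non-stop ovaries by 0.997 and that in the libraries labelled Ataxin-7 by 1.05 (both exact p = 0.005, the smallest possible, and 0.01125 adjusted over 9 comparisons). For Yp3 over Yp2 the differences were 0.72 and 0.70 (again p = 0.005 in both exact tests), and for Yp2 over Yp1 0.28 and 0.35 (both exact p = 0.01, adjusted 0.015). Between the libraries labelled Ataxin-7 and non-stop ovaries the differences were -0.05, 0.02 and -0.07 for the same 3 ratios (exact p = 0.825, 0.905 and 0.605). All libraries of an experiment carry the same label for experiment, so that a change of ratio is measured within 1 experiment and the comparison across experiments rests on each having its own FRT control.

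**Figure D4:**
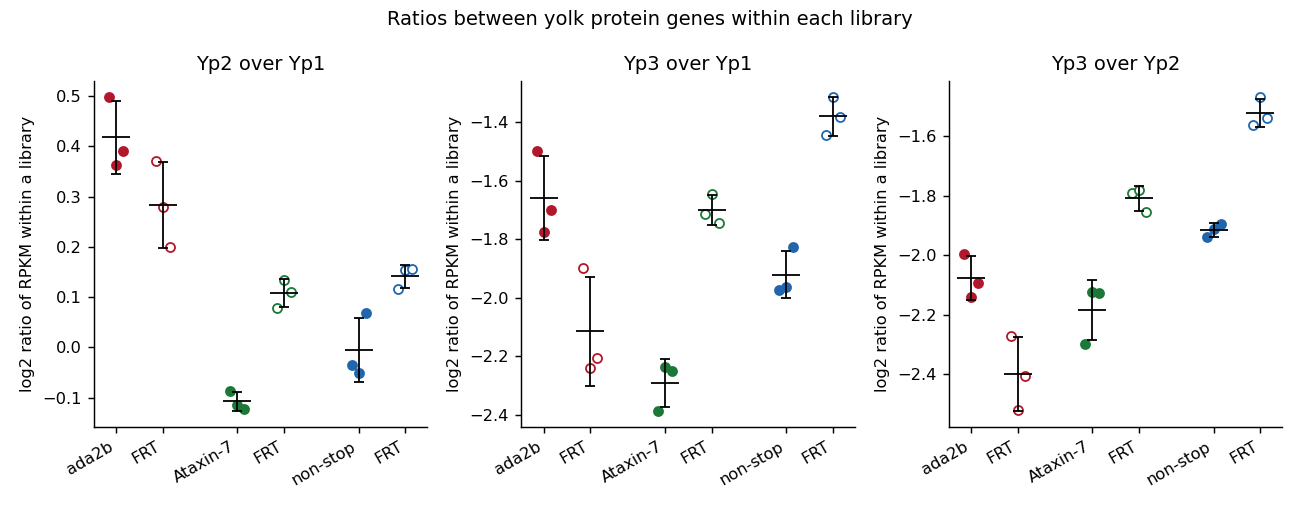
Log2 ratio of RPKM between yolk protein genes within each library (vertical axes) for Yp2 over Yp1, Yp3 over Yp1 and Yp3 over Yp2. Filled circles are mutant libraries, open circles their FRT libraries, and lines the mean with 1 SD of 3 libraries. For the ratios of Yp3, the ada2b libraries lie above their FRT libraries and the libraries labelled Ataxin-7 or non-stop lie below theirs, for example by 0.46, -0.59 and -0.54 for Yp3 over Yp1.

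From one library to another, the yolk protein genes moved together. With each library expressed relative to the mean of its own group, the Pearson correlation over 18 libraries was 0.99 between Yp1 and Yp2, 0.93 between Yp1 and Yp3 and 0.97 between Yp2 and Yp3, whereas yl stood at 0.04 to 0.19 with them. Points of one library share its depth and scaling, and the correlations are given as a description. Relative to the own FRT control, so with the mutant effects left in, yl and the yolk protein genes stood at -0.72 to -0.79.

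Other genes of the LDL receptor family were far less abundant than yl. Of 6 listed genes, 2 were tested in the ada2b experiment and 3 in each of the others, and the same 2 were lower in all 3 experiments. Of all tested genes, 42.3% were called lower in ada2b ovaries, 24.3% in the libraries labelled Ataxin-7 and 25% in non-stop ovaries. LpR2, a lipophorin receptor, was at 4.91 ± 0.764 RPKM in ada2b ovaries and 6.76 ± 0.364 RPKM in FRT ovaries (log2 fold change -0.40, adjusted p = 0.0168), and it fell by 0.77 in the libraries labelled Ataxin-7 (adjusted p = 0.000399) and by 0.59 in non-stop ovaries (adjusted p = 0.000778). With a common median the LpR2 change in ada2b ovaries was -0.17 and not called (adjusted p = 0.195). cue (cueball), a membrane protein with LDL receptor repeats that is needed in the fly germline, fell by 0.66 in ada2b ovaries (adjusted p = 0.000814), 0.18 in the libraries labelled Ataxin-7 (adjusted p = 0.0124) and 0.33 in non-stop ovaries (adjusted p = 0.0042). The lowering of yl was called in ada2b ovaries alone, and the interaction tests above give its difference from the other experiments.

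Yolkless reaches the membrane through the secretory pathway and is taken in with its cargo by clathrin-mediated endocytosis. Of 27 genes listed for these steps 23 were found in the table, all tested. In ada2b ovaries 3 were higher and 9 lower, beside 67.9% of all tested genes called (median log2 fold change -0.18, against -0.13 over all tested genes). The split turned with scaling, to 8 higher and 5 lower with a common median and 6 and 6 after quantile normalization. Rab7, a GTPase of late endosomes on the way to the yolk-storing compartment, was at 229 ± 22.1 RPKM in ada2b ovaries and 109 ± 7.75 RPKM in FRT ovaries (log2 fold change 1.06, adjusted p = 0.000147). AP-2mu, a subunit of the adaptor that joins cargo to clathrin, fell by 1.02 (adjusted p = 3.98e-05). EndoA, endophilin, which shapes the neck of budding vesicles, fell by 0.56 (adjusted p = 0.00331).

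In the other 2 experiments EndoA went the other way. It was at 33.0 ± 0.418 RPKM in the libraries labelled Ataxin-7 and 21.7 ± 0.673 RPKM in FRT ovaries, and at 21.9 ± 0.981 RPKM in non-stop ovaries and 13.1 ± 0.487 RPKM in FRT ovaries, with log2 fold changes of 0.58 and 0.70 (adjusted p = 6.31e-05 and 0.000199). boca, a chaperone of the endoplasmic reticulum that Yolkless needs to reach the oocyte surface, fell by 0.41 in the libraries labelled Ataxin-7 (adjusted p = 0.000274) and by 0.38 in non-stop ovaries (adjusted p = 0.00584). In ada2b ovaries boca was 0.32 higher (adjusted p = 0.0461), a value looked up after those of the other experiments had been seen. AP-2sigma, of the same adaptor, fell by 0.30 in the libraries labelled Ataxin-7 (adjusted p = 0.00147), and shi, the dynamin that pinches vesicles off, fell by 0.37 in non-stop ovaries (adjusted p = 0.00923). Non-stop ovaries had 1 of the 23 genes higher and 3 lower, and the libraries labelled Ataxin-7 had 4 higher and 6 lower, beside 50.8% and 44.3% of all tested genes called.

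The list of yolk protein modification and yolk proteases held 6 genes, all tested. CtsK1, a cathepsin of the papain family, was the most affected: it was at 309 ± 28.5 RPKM in ada2b ovaries and 1284 ± 68.5 RPKM in FRT ovaries (log2 fold change -2.05, adjusted p = 2.74e-05). CtsB, cathepsin B, rose by 0.55 in ada2b ovaries (adjusted p = 0.00101) and fell by 0.24 in the libraries labelled Ataxin-7 (adjusted p = 0.00346) and by 0.27 in non-stop ovaries (adjusted p = 0.0126). cathD, cathepsin D, was at 188 ± 14.5 RPKM in non-stop ovaries and 349.5 ± 29.1 RPKM in FRT ovaries (log2 fold change -0.89, adjusted p = 0.000317). CtsL1, cathepsin L, rose by 0.31 both in the libraries labelled Ataxin-7 (adjusted p = 0.00134) and in non-stop ovaries (adjusted p = 0.0115). In all, 1 was higher and 2 lower in ada2b ovaries, and 1 was higher and 3 lower in each of the other experiments. Of all tested genes, 67.9% were called in the ada2b experiment, 44.3% in the Ataxin-7 experiment and 50.8% in the non-stop experiment. With a common median 4 were higher and 1 lower in ada2b ovaries, and after quantile normalization the fall of CtsB in non-stop ovaries was not called (-0.08, adjusted p = 0.43).

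Transcription of yolk protein genes in flies depends on the sex determination genes, on ecdysone and juvenile hormone and on tissue factors. Of 24 regulators listed, 22 were in the table, and 15 passed the filter on low values in the ada2b and Ataxin-7 experiments and 12 in the non-stop experiment. In ada2b ovaries 4 were higher and 5 lower (median 0.04), beside 67.9% of all tested genes called, but 7 and 2 with a common median. slbo, a C/EBP factor of migrating follicle cells, was at 2.82 ± 0.640 RPKM in ada2b ovaries and 0.630 ± 0.0508 RPKM in FRT ovaries (log2 fold change 1.21, adjusted p = 0.000432). ix (intersex), which works with the female form of Doublesex, was at 13.2 ± 1.28 RPKM in ada2b ovaries and 27.9 ± 0.626 RPKM in FRT ovaries (-1.03, adjusted p = 9.39e-05). Hr3, a nuclear receptor induced by ecdysone, was 0.97 higher (adjusted p = 0.000377). slbo, Hr3 and gce, all among those higher, averaged under 1 RPKM in FRT ovaries (0.630, 0.548 and 0.876 RPKM). They passed the filter through their ada2b libraries, so they could be tested only because they were higher there.

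In the other experiments fewer regulators were called, beside 44.3% of all tested genes in the Ataxin-7 experiment and 50.8% in the non-stop experiment. usp, the partner of the ecdysone receptor, rose by 0.20 in the libraries labelled Ataxin-7 (adjusted p = 0.0128) and by 0.30 in non-stop ovaries (adjusted p = 0.0106), and tra2, a splicing factor of the sex determination pathway, fell by 0.21 in the libraries labelled Ataxin-7 (adjusted p = 0.0217). ftz-f1, a nuclear receptor, was 0.41 higher (adjusted p = 0.00685) and Aef1, a factor that binds the fat body enhancer of Yp1 in flies, 0.37 higher (adjusted p = 0.0112) in non-stop ovaries. The libraries labelled Ataxin-7 had 1 regulator higher and 1 lower, and non-stop ovaries had 3 higher and 1 lower. dsx itself was too low to test, at 0.289 ± 0.0280 RPKM in ada2b ovaries and 0.0372 ± 0.00575 RPKM in FRT ovaries.

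**Figure D5:**
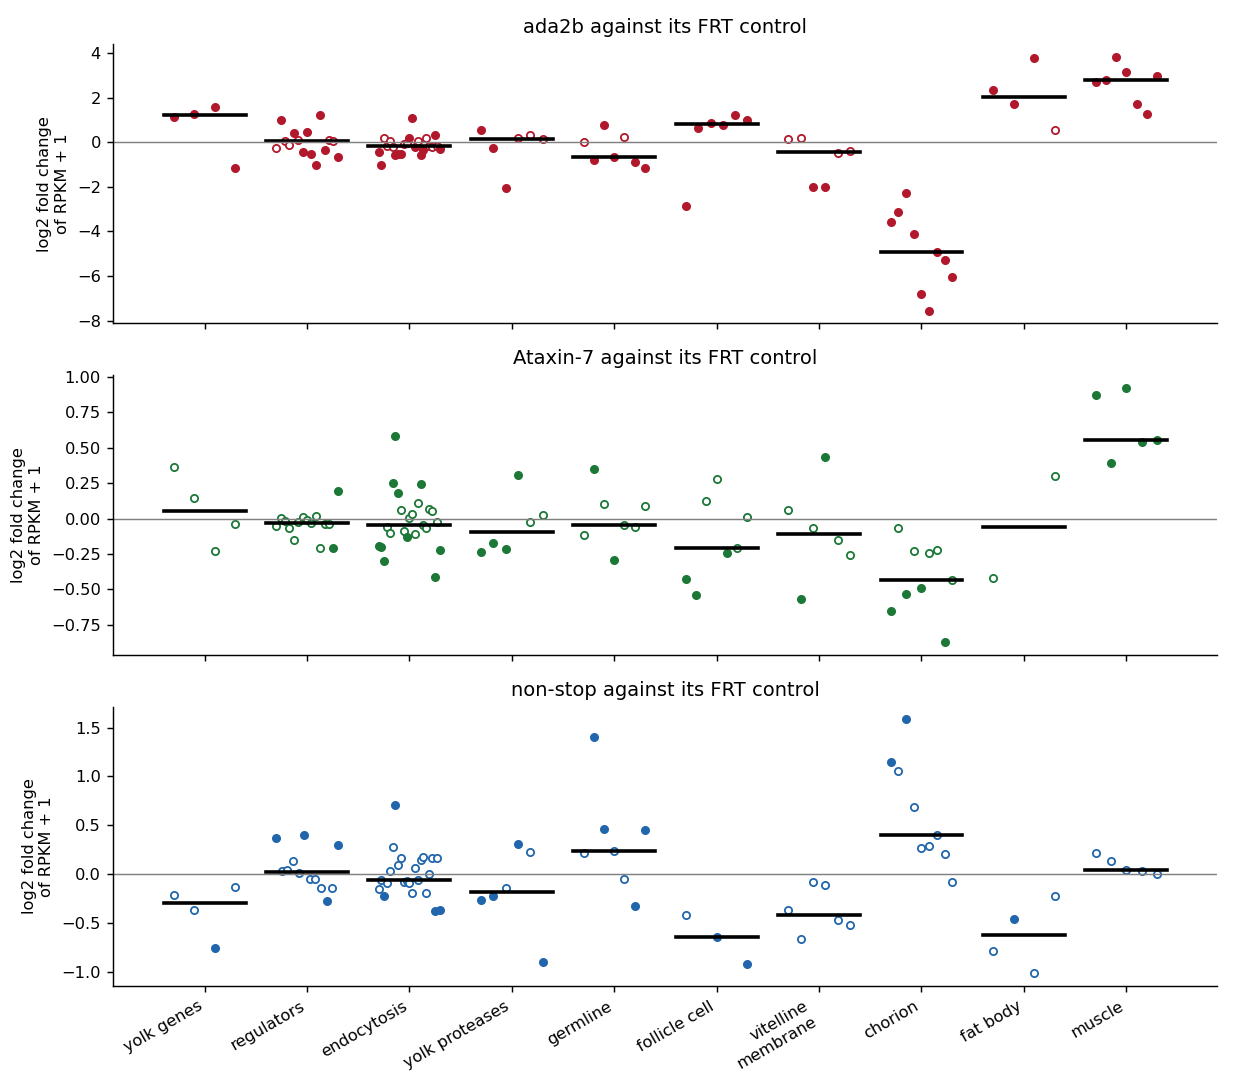
Log2 fold changes of RPKM + 1 against the own FRT control (vertical axes, a different range in each panel) for the tested genes of 10 lists, with ada2b, Ataxin-7 and non-stop from top to bottom. Each circle is a gene, filled where the adjusted p was under 0.05, and each line is the median of the list. In ada2b ovaries the yolk protein genes stand above 0, as do most follicle cell markers and the muscle and fat body markers. There yl stands below 0 with most germline markers, and the 9 chorion genes lie lowest, at a median of -4.93.

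Markers of the cells that make yolk proteins, make the receptor or may cling to a dissected ovary were counted beside the 67.9% of all genes called in the ada2b experiment (25.6% higher and 42.3% lower). Of 7 germline markers 1 was higher and 4 lower (median -0.66), a share near that background. Among the lower ones osk was at 104 ± 11.2 RPKM in ada2b ovaries and 193 ± 11.6 RPKM in FRT ovaries. The higher one was grk, at 9.65 ± 1.56 RPKM in ada2b ovaries and 5.13 ± 0.317 RPKM in FRT ovaries. Neither orb nor aub was called, at log2 fold changes of 0.23 and -0.01. The 7 germline markers summed to 226 to 317 RPKM in ada2b ovaries against 435 to 474 RPKM in FRT ovaries, a sum in which osk and otu weighed most. The part of the germline in the fall of yl was not tested. Of 6 tested follicle cell markers 5 were higher and 1 lower (median 0.80): tj, a factor of somatic gonad cells, was at 72.3 ± 14.6 RPKM in ada2b ovaries and 35.0 ± 1.05 RPKM in FRT ovaries, whereas Cad74A, a cadherin of follicle cells, fell by 2.86. Among the higher ones slbo, also counted as a regulator above, was at 0.630 RPKM in FRT ovaries and passed the filter through its ada2b libraries. The 7 listed follicle cell markers summed to 78.9 to 112 RPKM in ada2b ovaries against 54.8 to 58.4 RPKM in FRT ovaries.

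Markers of the fat body, the other source of yolk proteins, were also higher in ada2b ovaries. The table held 8 of them, of which 4 were tested and 3 were higher, none lower, and the 8 summed to 40.0 to 94.7 RPKM in ada2b ovaries against 5.46 to 8.98 RPKM in FRT ovaries. Tsf1, transferrin, was at 34.6 ± 11.6 RPKM in ada2b ovaries and 1.66 ± 1.07 RPKM in FRT ovaries, Lsp2, a storage protein, at 16.2 ± 15.4 RPKM and 1.71 ± 0.917 RPKM in those groups, and Obp99b at 7.32 ± 3.53 RPKM and 1.38 ± 0.217 RPKM. apolpp, the lipophorin gene, was not called, at 3.78 ± 1.94 RPKM in ada2b ovaries and 2.12 ± 0.212 RPKM in FRT ovaries. None of the 8 was at 0 in all libraries of the experiment. All 7 muscle markers were higher too, with a sum of 191 to 316 RPKM in ada2b ovaries against 18.8 to 35.7 RPKM in FRT ovaries, and so were both tested hemocyte markers. The muscle markers Mhc, bt and sls averaged 0.828, 0.122 and 0.352 RPKM in FRT ovaries, and the hemocyte markers NimC1 and Ppn 0.109 and 0.398 RPKM. All of these are under the filter of 1 RPKM, so they could be tested only because they were higher in ada2b ovaries. The part of fat body cells, muscle cells and hemocytes in the higher yolk protein levels of ada2b ovaries was not tested.

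The same lists were counted in the other experiments, beside 44.3% of all tested genes called in the Ataxin-7 experiment and 50.8% in the non-stop experiment. The fat body markers summed to 1.65 to 6.98 RPKM in the libraries labelled Ataxin-7 against 1.93 to 5.31 RPKM in FRT ovaries, with 0 of 2 tested called, and to 7.17 to 17.2 RPKM in non-stop ovaries against 11.2 to 28.4 RPKM in FRT ovaries, with 1 of 4 lower. The libraries labelled Ataxin-7 had all 5 tested muscle markers higher, with a sum of 62.9 to 86.9 RPKM over the 7 in the table against 32.2 to 45.9 RPKM in FRT ovaries, and 0 of 5 were called in non-stop ovaries. Most of that sum was Act57B, at 54.9 ± 9.59 RPKM in the libraries labelled Ataxin-7 and 29.6 ± 5.69 RPKM in FRT ovaries. sls, too low to test, went the other way, at 0.113 ± 0.000826 RPKM and 0.938 ± 0.0834 RPKM in those groups. bt, also too low, was at 0.286 ± 0.0794 RPKM and 0.192 ± 0.0460 RPKM. Mhc, among the 5 tested, averaged 0.947 RPKM in the FRT ovaries of that experiment, under the filter of 1 RPKM. It passed through the libraries with the Ataxin-7 label, at 1.57 RPKM, so it could be tested only because its level rose there. Of 7 germline markers 3 were higher and 1 lower in non-stop ovaries, and the libraries labelled Ataxin-7 had 1 higher and 1 lower. The libraries labelled Ataxin-7 also had 3 of 7 tested follicle cell markers lower and none higher. In non-stop ovaries, where Yp3 fell, 2 of 3 tested follicle cell markers were lower and none higher, with all 7 at a sum of 16.1 to 32.4 RPKM in non-stop ovaries against 34.9 to 47.8 RPKM in FRT ovaries. Their part in the fall of Yp3 was not tested.

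Follicle cells also make the eggshell, and none of its listed genes was called higher in ada2b ovaries, where the yolk protein genes rose. All 9 chorion genes fell there (median -4.93), to a sum of 963 to 2830 RPKM against 20076 to 22644 RPKM in FRT ovaries, and 2 of the 6 earlier-acting vitelline membrane genes fell and none rose. The libraries labelled Ataxin-7 had 4 of 9 chorion genes lower and none higher, and in non-stop ovaries 2 of 9 were higher and none lower, at medians of -0.44 and 0.40. Of the 6 vitelline membrane genes, 1 was higher and 1 lower in the Ataxin-7 experiment (median -0.11). In the non-stop experiment none was called, with a median of -0.41 on the same side of 0 as the yolk protein genes there. After quantile normalization that median was 0.07, and the median of the yolk protein genes and yl together was 0.17. Under that setting 5 of 9 chorion genes were higher in non-stop ovaries. Over all tested genes, 67.9% were called in the ada2b experiment (25.6% higher and 42.3% lower), 44.3% in the Ataxin-7 experiment and 50.8% in the non-stop experiment.

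The genes most like the members were found by the Pearson correlation of log2(RPKM + 1), relative to the own FRT control, over the 18 libraries and 7171 other genes. Closest to the mean of the yolk protein genes were Edem2, stl, ogre, CG12398 and CG4455, at correlations of 0.960 to 0.966. Edem2 belongs to the disposal of misfolded proteins in the endoplasmic reticulum, stl (stall) is a secreted metalloprotease needed for follicle formation, and ogre is a gap junction innexin. CG12398 had the widest change of the 5, at 132 ± 18.7 RPKM in ada2b ovaries and 35.3 ± 3.05 RPKM in FRT ovaries, with -0.01 in the libraries labelled Ataxin-7 and -0.53 in non-stop ovaries on the log2 scale.

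Closest to yl were Rpn2, GCS2alpha, Mcm6, Atpalpha and XNP, at correlations of 0.984 to 0.987. Rpn2 is a proteasome subunit, GCS2alpha trims sugars from new glycoproteins, Mcm6 is part of the replicative helicase, Atpalpha is the catalytic subunit of the sodium pump and XNP is a chromatin remodeller. All 5 were lower in ada2b ovaries, by 0.85 to 1.23 on the log2 scale, and none was called in the other experiments. These correlations rest largely on the 3 ada2b libraries, which share 1 experiment, and are a description of these libraries.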

How the data were processed

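Poly(A) RNA of 18 Drosophila ovary libraries was examined, 3 for each mutant and 3 for each FRT control of its own experiment, with groups and replicate numbers taken from the labels. The authors deposited RPKM values, 1 per gene and library. The submitters' processing notes name CASAVA 1.8.2, TopHat2 2.0.13, edgeR 3.14.0 and the build dm3. The counter, the annotation and the use of strand are not given in the sources used here. The deposited RPKM values of all 13903 genes above 0 came out as whole reads (within 0.01 of a read), which gave reads and depth per library. The scaling was done within each experiment, so levels were tested only within an experiment, and differences between experiments only as differences of changes. RPKM per kilobase of gene length sets the level of a gene with the length used (Yp3), not its fold change.

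Changes were tested with limma 3.58.1 (lmFit, and eBayes with a trend) in R 4.3.3 on log2(RPKM + 1), leaving out genes whose RPKM averaged under 1 in the fitted libraries, with Benjamini-Hochberg adjustment over all tested genes and a threshold of 0.05. Single genes and ratios were tested with exact two-sided permutation tests (scipy 1.17.1), in which 3 against 3 cannot go below 0.1. The fits were tested on simulated data. The least chi-square per degree of freedom between replicates of a group was 9.25, so none was counted as a repeat of another. Symbols and positions came from BDGP6.54, which holds 15002 of the 15682 identifiers.

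The 4 genes, the gene lists and the marker lists were chosen with earlier results of these data known, and lists are given as counts and medians without a test. By rule, the 4 genes are always named, of each list at most the 3 called genes with the largest change in an experiment, and by likeness the 5 genes of highest correlation. Values outside this rule (apolpp, dsx, gce, orb, aub, Mhc, bt and sls, and boca in ada2b ovaries) were chosen after they had been seen. Of all lists, 9 genes were not matched to the table by name. Alternative settings were no filter, a filter at 5 RPKM, a pseudocount of 0.1, quantile normalization, a common median, eBayes with no trend, a replicate block, 1 fit of all 18 libraries, limma voom on recovered reads, RPKM per kilobase of exons for levels, and leaving out each library. The comparison of ratio changes between experiments, and its repeats without each library, were chosen after seeing the data. Python 3.11.15, pandas 2.3.3 and matplotlib 3.10.9 made the tables and plots.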

Additional observations from a re-analysis of the deposited data

Results flagged for a closer look

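The changes of all 4 genes differed between the ada2b experiment and each of the other 2 in limma interaction tests over 12 libraries. Against the non-stop change, the ada2b change was 1.35 higher for Yp1, 1.63 higher for Yp2 and 2.35 higher for Yp3 on the log2 scale, and for yl the difference was -1.02. Against the change in the libraries labelled Ataxin-7, it was 0.78 higher for Yp1, 1.13 higher for Yp2 and 1.82 higher for Yp3, and for yl the difference was -1.11. The direction and the call held whichever library was left out, while quantile normalization ended 3 of these calls. The differences of Yp3 were larger than those of Yp1 and Yp2 in both comparisons, which was not itself tested on this scale.

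The proportions among the yolk protein transcripts also changed differently, by exact permutation of the labels within each experiment. The change of the log2 ratio of Yp3 over Yp1 was higher in ada2b ovaries by 0.997 than in non-stop ovaries and by 1.05 than in the libraries labelled Ataxin-7. For Yp3 over Yp2 it was higher in ada2b ovaries by 0.72 than in non-stop ovaries and by 0.70 than in the libraries labelled Ataxin-7. For Yp2 over Yp1 it was higher in ada2b ovaries by 0.28 than in non-stop ovaries and by 0.35 than in the libraries labelled Ataxin-7. The libraries labelled Ataxin-7 and non-stop ovaries gave changes of each ratio that differed by at most 0.07 (p = 0.605 to 0.905 in the exact test). With 3 libraries a group this does not show that the changes are alike.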

How the results depend on the processing

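The ada2b changes of all 4 genes kept their direction and call under all 9 alternatives and without each library, between 1.08 and 1.41 for Yp1, 1.02 and 1.54 for Yp2, 1.47 and 1.86 for Yp3 and -1.27 and -0.83 for yl. Quantile normalization reversed the non-stop changes of Yp1 (0.45), Yp2 (0.30) and yl (0.035), none called before or after, and ended the call of Yp3 (-0.48). It also ended the calls of the ada2b minus non-stop difference for Yp1 (0.51) and Yp2 (0.66) and of the ada2b minus Ataxin-7 difference for Yp1 (0.79), and it reversed the Ataxin-7 minus non-stop differences of Yp1 (-0.13), Yp2 (-0.21) and yl (-0.088), which were not called. Without a filter the Yp3 change in non-stop ovaries was -0.75 and not called. The Yp1 change in the libraries labelled Ataxin-7, 0.36, was called with the filter at 5 RPKM and in limma voom (both 0.36). One fit of all 18 libraries called 1875 genes in the Ataxin-7 experiment, against 3288. Per kilobase of exons, Yp3 averaged 732 RPKM. The cause was not tested in these cases.

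Leaving out each library gave changes of 0.26 to 0.48 for Yp1 in the libraries labelled Ataxin-7, and in non-stop ovaries of -0.42 to 0.086 for Yp1 and -0.96 to -0.50 for Yp3. Changes not called in any repeat ranged from 0.04 to 0.25 for Yp2 and -0.36 to -0.06 for Yp3 in the libraries labelled Ataxin-7, from -0.56 to -0.10 for Yp2 in non-stop ovaries, and from 0.28 to 0.78 for Yp1, 0.24 to 0.70 for Yp2 and 0.27 to 0.73 for Yp3 as Ataxin-7 minus non-stop differences. The Ataxin-7 minus non-stop difference ran from -0.016 to 0.20 for yl and from -0.010 to 0.078 for the log2 ratio of Yp3 over Yp2.

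Over all tested genes, same-numbered mutant and FRT libraries did not deviate together (correlations of their deviations from -0.38 to 0.13), so the numbers were not taken as pairs. The yolk protein genes themselves ran in the same order of replicates in both groups of the non-stop experiment. There the replicate block narrowed the SE of the Yp1 change from 0.28 to 0.13. With the replicate block the Yp2 change in non-stop ovaries, -0.36, was called (adjusted p = 0.0483 in limma), no other call of a member changed, and the genes called numbered 5042 for ada2b, 2718 for Ataxin-7 and 3501 for non-stop, against 5209, 3288 and 3805. With 3 libraries a group and no block, the wide spread of the yolk protein genes in the non-stop experiment, not read depth, sets the width of the intervals there.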
